A study of Homo sapiens with 16 samples.

Results

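H3K27ac was examined at 8 genes that encode cytosolic RNA sensors and the proteins that signal from them or act on the same RNA: DDX58, IFIH1, DHX58, MAVS, TBK1, IKBKE, EIF2AK2 and ADAR. Members were all windows of the deposited table assigned to one of these genes and centred no more than 50000 bp from the transcription start site (TSS), with no distance limit for IKBKE. This gave 58 of 151654 windows, with 12 for ADAR, 14 for IKBKE, 6 each for DDX58, IFIH1, DHX58 and EIF2AK2, and 4 each for MAVS and TBK1. A window is named here by its gene and the distance of its centre from the TSS in bp, so that DDX58 +11 is centred 11 bp downstream of the DDX58 start. Of the 58 windows, 18 lay within 3000 bp of the start and 26 overlapped another member window, so that neighbouring windows share tags. The distance limit left out 15 windows of ADAR, DDX58 and TBK1. Levels are given in CPM, the tag count of a window scaled to the library's total of window tags after TMM adjustment. The member closest to the limit, TBK1 +48572, averaged 34.0 CPM in untreated WT and 10.8 CPM in untreated USP18-/- cells, and the nearest window left out, ADAR -50818, averaged 1.35 and 1.03 CPM. The 3 TBK1 windows left out, from +67926 to +76596, averaged between 6.13 and 25.7 CPM in untreated WT cells and between 0.364 and 4.07 CPM in untreated USP18-/- cells.

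RIG-I, encoded by DDX58, and MDA5, encoded by IFIH1, are helicases that recognise viral and other unusual RNA in the cytosol, and LGP2, encoded by DHX58, is a related helicase without a signalling domain that modulates both. Activated RIG-I and MDA5 assemble the mitochondrial adaptor MAVS, which recruits the kinases TBK1 and IKKε (IKBKE), and these phosphorylate IRF3 and IRF7 to switch on type I interferon genes. PKR (EIF2AK2) halts translation when it binds duplex RNA, and ADAR converts adenosine to inosine in such RNA, which limits its recognition. Several of these genes are known interferon-stimulated genes, which places the sensors downstream of the cytokine they induce.

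The cells were THP-1, a line derived from acute monocytic leukemia, and the mark, acetylation of lysine 27 on histone H3, is found on nucleosomes flanking promoters and enhancers in use. The WT line carried Cas9 only per the genotype label (the treatment notes name a control guide), whereas the USP18-/- line was made with CRISPR guides and expanded from sorted individual cells, so that the genotype and the clone cannot be told apart. USP18 is a negative regulator of the type I interferon receptor. Cells of each genotype were left untreated or received IFNα at 1000 U/ml for 6 h, with 2 libraries in each of the 4 groups. The study describes the libraries of a group as biological replicates, whereas the labels do not say whether they came from separate cultures, and p-values measure the spread between these libraries. Libraries held 9046141 to 12935453.5 tags in the windows, with 36.1% to 42.5% of all tags there, and the tag totals, but not both shares, were higher in the IFNα treated USP18-/- libraries than in any other. TMM factors ran from 0.879 to 1.09, with the lowest in that group. At the TSS window of USP18 the untreated libraries held 7.64 to 8.51 CPM in both genotypes, which does not test the deletion of coding sequence. All 9 myeloid markers examined had a tested window within 3000 bp of the TSS, among them SPI1, CEBPA and CD33. The windows of MPO and FCGR1A, centred at -1012 and +2820, do not cover the TSS itself. CD3E, CD3D, MS4A1, HBB, EPCAM and KRT18 had no window within 3000 bp. The fibroblast markers COL1A1 and PDGFRB had a tested window and averaged 2.52 and 1.23 CPM in untreated WT cells. In the same cells the myeloid marker CSF1R averaged less than COL1A1, whereas the other myeloid markers averaged more. The levels of COL1A1 and PDGFRB thus do not set them apart from every myeloid marker. MPO, a marker of immature myeloid cells, averaged 53.0 CPM in untreated WT and 17.5 CPM in untreated USP18-/- cells and was the 1 myeloid marker called between them. CD14, SPI1 and CEBPA were higher in untreated USP18-/- cells by 0.98, 0.57 and 0.56 on the log2 scale, under 2-fold. They passed an edgeR adjusted p of 0.05, with 3.1e-04, 6.4e-08 and 1.3e-05. In the same comparison CSF1R, CD33 and LYZ gave 0.66, 0.25 and 0.21, and ITGAM and FCGR1A gave -0.10 and -0.47. CSF1R, CD33, LYZ, ITGAM and FCGR1A did not pass an edgeR adjusted p of 0.05. Within USP18-/- cells, MPO and LYZ were called lower in treated than in untreated libraries, with log2 changes of -2.00 and -1.40. The part of these markers in the differences below was not tested.

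Sequence was read from hg38 to show where the windows at the starts of these genes hold the core of the interferon-stimulated response element (ISRE), a sequence through which type I interferon activates its target genes. The core was searched on both strands as GAAA and GAAA with any 2 bases between them. It occurred in 15 of 58 member windows (25.9%) and in 17.2% of all windows of the same 1000 bp length. Within 3000 bp of a TSS it occurred in 7 of 18 member windows (38.9%) and in 11.7% of all such windows. Among the 7, EIF2AK2 +19 and +483 overlap and hold the same site, which was counted in both. Some of the matches are printed here, from windows at the start of ADAR, EIF2AK2 and TBK1 and from an IKBKE window far upstream, 5′ to 3′ on the matching strand with the core in capitals and 10 bases on each side.
ADAR +8, minus strand, chr1:154608189-154608198: ccgaggaaacGAAAGCGAAAttgaaccgga
EIF2AK2 +19 and +483, minus strand, chr2:37156977-37156986: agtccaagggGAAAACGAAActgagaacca
TBK1 +26, plus strand, chr12:64451635-64451644: tgggtgatggGAAAATGAAAaaaacaatgt
IKBKE -112107, minus strand, chr1:206358187-206358196: taaagatgagGAAAGTGAAActcagcatgg
By the file's start sites, the ADAR core lay at +55, the EIF2AK2 core at +66 and the TBK1 core at -421. No ISRE core of these letters was found in the windows DDX58 +11, IFIH1 +736, MAVS -7 or IKBKE +240. IFIH1 +736 begins downstream of the TSS, so that it does not cover the IFIH1 start or the sequence upstream of it.

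DDX58 +11 was the 1 member window with a match to GGGA and TTCC with any 2 bases between them, a form of the NF-kB site. This form was present in 1.72% of member windows and in 3.69% of all windows. The match is printed as the only one of its form among the members. DDX58 +11 and IFIH1 +736 both rose with IFNα in each genotype and held no ISRE core of the letters searched. Other forms of the ISRE were not searched, so these windows may hold one. IFIH1 +736 held no match to the NF-kB form either.
DDX58 +11, plus strand, chr9:32526263-32526272: ggggaaagcaGGGATTTTCCgaggaaatga
A match is a description of letters and was not tested as a binding site.

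A window was called when it passed an adjusted p of 0.05 in the quasi-likelihood test of edgeR, after Benjamini-Hochberg adjustment over all windows tested (edgeR adjusted p below), and changed more than 2-fold. Of the 58 member windows, 53 had enough tags to be tested, and the other 5 held at most 1.60 CPM in any library. IFNα raised 8 of 53 member windows in WT cells (15.1%), beside 0.343% of all 123276 windows tested. In USP18-/- cells it raised 15 of 53 (28.3%), beside 7.12% of all windows. Among the 15, IKBKE -112107 and DDX58 +5437 reached the minimum of 10 counts in 2 libraries through the treated USP18-/- libraries alone, where they were high, so that the filter favoured their calls. The median log2 change of the tested members was 0.05 in WT cells (all windows, -0.01) and 0.34 in USP18-/- cells (all windows, -0.01). No member window was called lower with IFNα in either genotype, where 0.0389% and 4.41% of all windows were. At an unadjusted p under 0.05, 3 member windows were lower in WT cells and 4 in USP18-/- cells, and DESeq2 called 0 in both.

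All 8 windows called in WT cells lay within 3000 bp of a start, and 5 genes held them: DDX58, IFIH1, DHX58, EIF2AK2 and ADAR. Among all 28847 tested windows within that distance, 0.458% were called higher. The same 8 windows were called in USP18-/- cells, where the further 7 belonged to ADAR, DDX58, IKBKE and TBK1. No MAVS window was called in any of the 5 comparisons, the fifth being the difference of the IFN effects between the genotypes. Both IFN comparisons share their libraries with the comparisons between genotypes.

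**Figure D1:**
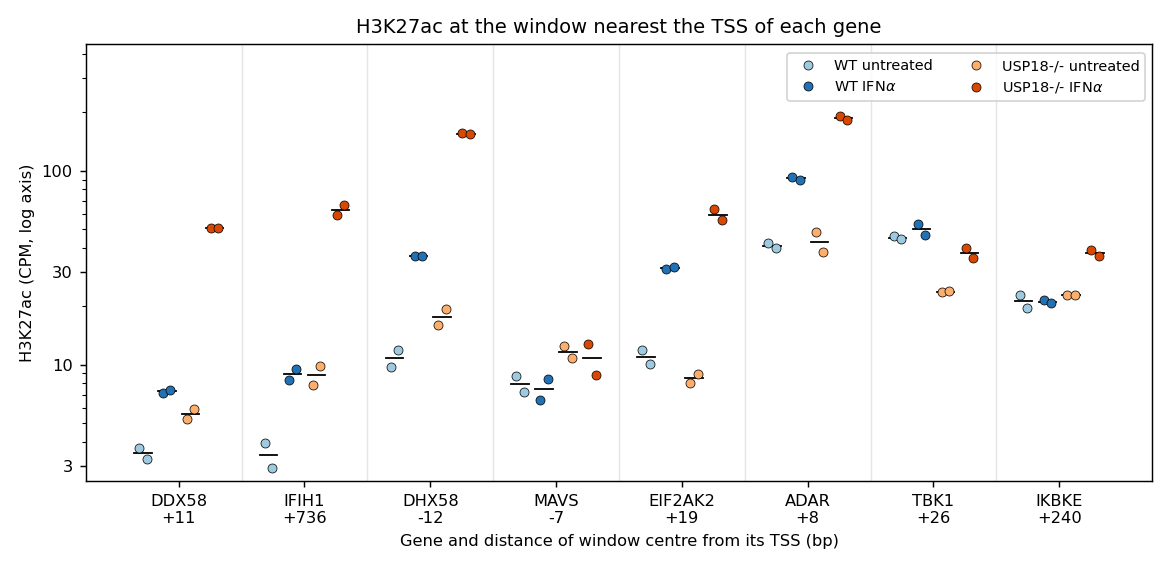
H3K27ac in CPM on a log axis at the window nearest the TSS of each gene. Points are the 2 libraries of each group and bars their mean. DDX58, IFIH1, DHX58, EIF2AK2 and ADAR stand highest in IFNα treated USP18-/- cells, MAVS shows overlapping IFNα treated and untreated libraries, and TBK1 is lowest in untreated USP18-/- cells.

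DDX58 encodes RIG-I, which binds short RNA with a triphosphate end. Its start window, DDX58 +11 (chr9:32525813-32526813, annotated promoter), held 3.73 and 3.28 CPM in untreated WT libraries, 7.15 and 7.41 CPM with IFNα, 5.25 and 5.90 CPM in untreated USP18-/- libraries and 50.5 and 50.4 CPM in USP18-/- libraries with IFNα.  No pair of groups overlapped, and the treated USP18-/- libraries stood far above the rest. With IFNα this window rose by a log2 change of 1.06 in WT cells (SE 0.22, edgeR adjusted p = 0.0018) and by 3.18 in USP18-/- cells (SE 0.15, edgeR adjusted p = 3.0e-31). The IFN effect was larger in USP18-/- cells by 2.12 (SE 0.28, edgeR adjusted p = 1.1e-08). Without replicate 2 of untreated WT cells the WT change was 0.96 and was no longer called.

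The neighbouring window in intron 1, DDX58 +656, overlapped the start window and behaved alike. It held 1.87 and 2.00 CPM in untreated and 4.97 and 4.53 CPM in treated WT libraries, then 2.80 and 2.90 CPM in untreated and 37.4 and 34.6 CPM in treated USP18-/- libraries. Its change of 3.65 (SE 0.18, edgeR adjusted p = 7.2e-30) was the steepest rise with IFNα in USP18-/- cells among member windows with a tag in every group. The WT change of 1.29 (SE 0.28, edgeR adjusted p = 0.0031) was lost when replicate 1 or 2 of untreated WT or replicate 1 of treated WT cells was left out. Windows named outside the fixed rule were chosen after their values were seen, here DDX58 +5437 and DDX58 +42742 in introns 1 and 10, which rose by 1.59 and 1.51 in USP18-/- cells (SE 0.48 and 0.50) from levels below 1 CPM. DESeq2 called neither of them, and both calls were lost without replicate 1 of untreated USP18-/- cells (DDX58 +5437 was not tested without either treated USP18-/- library), that of DDX58 +42742 also without replicate 1 of treated USP18-/- cells.

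IFIH1 encodes MDA5, which forms filaments along long duplex RNA. The window nearest its start, IFIH1 +736 (chr2:162317472-162318472), begins downstream of the TSS of the file, and no other member window lies nearer. It held 3.94 and 2.91 CPM in untreated WT libraries, 8.35 and 9.47 CPM with IFNα, 7.88 and 9.86 CPM in untreated USP18-/- libraries and 58.7 and 66.3 CPM with IFNα. The untreated USP18-/- libraries thus spanned the range of the treated WT libraries. IFNα raised the window by 1.39 in WT cells (SE 0.21, edgeR adjusted p = 3.9e-06) and by 2.82 in USP18-/- cells (SE 0.14, edgeR adjusted p = 1.7e-30), with a difference of 1.43 (SE 0.27, edgeR adjusted p = 3.8e-05). It was the 1 start window of the 8 genes called between untreated genotypes, 1.38 higher in USP18-/- cells (SE 0.21, edgeR adjusted p = 8.6e-08).

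At IFIH1 +23537 and +29744, inside the gene, the direction of the genotype difference was opposite, whereas IFIH1 +20326 and +20562, also in intron 3, gave 0.34 and 0.84 in untreated cells and were not called. IFIH1 +23537, in intron 3, held 4.36 and 5.28 CPM in untreated and 2.98 and 2.68 CPM in treated WT libraries, but 0.525 and 1.16 CPM in untreated and 0.801 and 0.376 CPM in treated USP18-/- libraries. All 4 USP18-/- libraries lay below all 4 WT libraries. The log2 difference was -2.53 without IFNα (SE 0.36, edgeR adjusted p = 1.7e-08) and -2.23 with it (SE 0.43, edgeR adjusted p = 8.1e-06). IFIH1 +29744, in intron 4, was lower by a log2 difference of -1.78 in untreated USP18-/- cells (SE 0.54, edgeR adjusted p = 0.0062), a call that was lost with DESeq2 and without replicate 1 of untreated USP18-/- or replicate 2 of untreated WT cells. Neither window was called with IFNα in either genotype.

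DHX58 encodes LGP2. Its start window, DHX58 -12 (chr17:42112245-42113245, annotated promoter), held 9.75 and 11.8 CPM in untreated WT libraries, 36.4 and 36.2 CPM with IFNα, 16.0 and 19.2 CPM in untreated USP18-/- libraries and 157 and 154 CPM with IFNα, and no groups overlapped. The IFN effect was 1.74 in WT cells, the largest WT effect of the 53 windows (SE 0.13, edgeR adjusted p = 5.5e-19), and 3.14 in USP18-/- cells (SE 0.11, edgeR adjusted p = 2.0e-40). The effects differed by 1.40 (SE 0.17, edgeR adjusted p = 5.6e-10). Untreated USP18-/- cells were 0.70 higher than untreated WT cells (SE 0.14, edgeR adjusted p = 1.7e-05), which is less than 2-fold. Of the other 5 DHX58 windows, DHX58 +4836 in intron 7 alone was called in any comparison, 1.10 higher in USP18-/- than in WT cells with IFNα (SE 0.38, edgeR adjusted p = 0.015), and that call was lost with DESeq2, with either other scaling and without replicate 2 of either treated group.

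**Figure D2:**
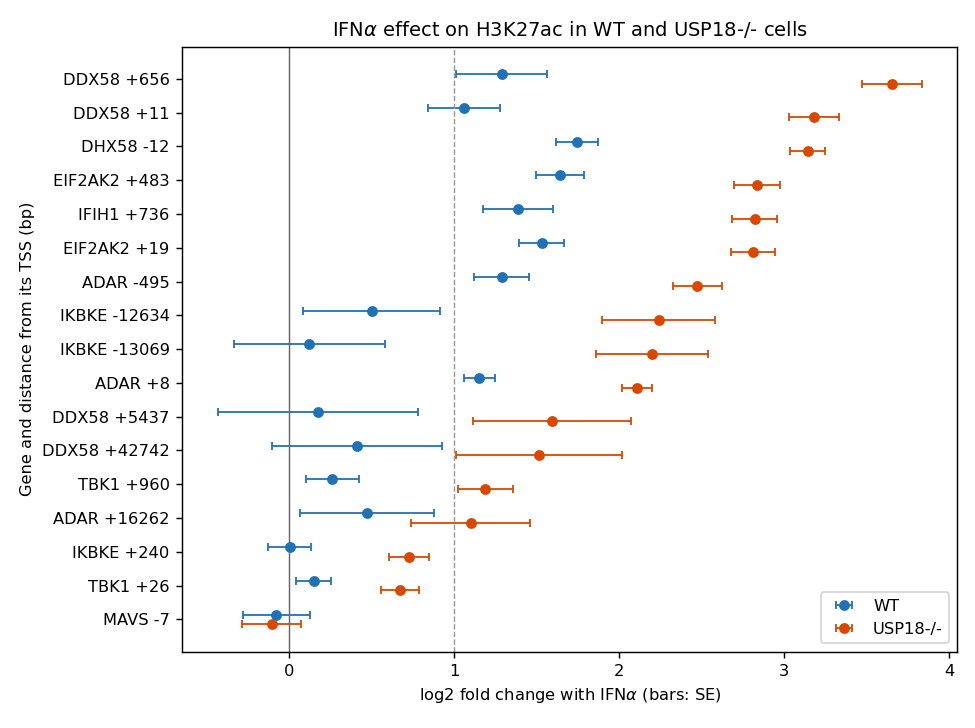
Log2 fold change of H3K27ac with IFNα in WT cells (blue) and USP18-/- cells (orange), with SE bars, for the window nearest each start and the member windows called higher in USP18-/- cells, except IKBKE -112107, which was at 0 in treated WT libraries. The dashed line marks a 2-fold rise. Orange points lie to the right of blue ones in every row but MAVS -7, with DDX58 +656 farthest at 3.65.

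MAVS encodes the adaptor on which RIG-I and MDA5 converge. MAVS -7 (chr20:3846292-3847292, annotated promoter) held 8.71 and 7.19 CPM in untreated and 6.56 and 8.44 CPM in treated WT libraries, and 12.4 and 10.8 CPM in untreated and 12.7 and 8.83 CPM in treated USP18-/- libraries. Treated and untreated libraries of each genotype overlapped. The IFN effect was -0.08 in WT cells (SE 0.20) and -0.11 in USP18-/- cells (SE 0.18), and their difference was -0.03 (SE 0.27); each of these took the opposite sign when 1 library was left out. With edgeR adjusted p of 0.96, 0.75 and 0.98 none passed the test, which does not show that the levels were equal. Between genotypes MAVS -7 was 0.56 higher in untreated USP18-/- cells (SE 0.19, edgeR adjusted p = 0.015) and 0.53 higher with IFNα (SE 0.19, edgeR adjusted p = 0.021), both under 2-fold. The start windows of all 16104 genes with a tested window had medians of 0.31 and 0.35 in these comparisons. MAVS +442, which overlaps it, gave 0.58 and 0.68.

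TBK1 encodes the kinase that phosphorylates IRF3. TBK1 +26 (chr12:64451586-64452586, annotated promoter) held 45.8 and 44.2 CPM in untreated and 52.9 and 46.7 CPM in treated WT libraries, and 23.54 and 23.99 CPM in untreated and 40.04 and 35.50 CPM in treated USP18-/- libraries. Every WT library was above every USP18-/- library. In untreated cells the log2 difference was -0.92 in USP18-/- against WT (SE 0.11, edgeR adjusted p = 1.1e-10), just under 2-fold, and -1.07 with scaling by the sum of counts. IFNα gave 0.15 in WT cells (SE 0.11, edgeR adjusted p = 0.75) and 0.67 in USP18-/- cells (SE 0.11, edgeR adjusted p = 1.3e-06), and these effects differed by 0.52 (SE 0.16, edgeR adjusted p = 0.013). With IFNα the USP18-/- level remained below that of WT cells, by a log2 difference of -0.40 (SE 0.11, edgeR adjusted p = 0.0013).

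Further into the gene, TBK1 +960 was called higher with IFNα in USP18-/- cells, and TBK1 +5139 and +48572 were not. TBK1 +960 in intron 1 went from 6.39 and 10.2 CPM to 17.5 and 19.9 CPM, a log2 change of 1.19 (SE 0.17, edgeR adjusted p = 8.7e-09), while WT libraries went from 13.3 and 12.7 CPM to 15.3 and 15.9 CPM. Without replicate 1 of untreated USP18-/- cells this change was 0.85 and was not called. TBK1 +5139 in intron 2 was lower in untreated USP18-/- cells by a log2 difference of -1.13 (SE 0.29, edgeR adjusted p = 0.0010; -0.85 and not called without replicate 2 of untreated WT cells) and changed by 0.94 with IFNα there (SE 0.29, edgeR adjusted p = 0.011), under 2-fold.

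TBK1 +48572, in the last intron of the gene, held 35.5 and 32.6 CPM in untreated and 33.2 and 34.0 CPM in treated WT libraries, but 11.0 and 10.6 CPM in untreated and 11.2 and 9.39 CPM in treated USP18-/- libraries. The genotypes did not overlap, with log2 differences of -1.65 without IFNα (SE 0.14, edgeR adjusted p = 2.0e-17) and -1.70 with it (SE 0.14, edgeR adjusted p = 2.3e-18). Its IFN effects were -0.02 in WT (SE 0.12) and -0.07 in USP18-/- cells (SE 0.16). The 3 TBK1 windows beyond the distance limit had log2 differences of -4.02, -2.66 and -3.45 between untreated genotypes.

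**Figure D3:**
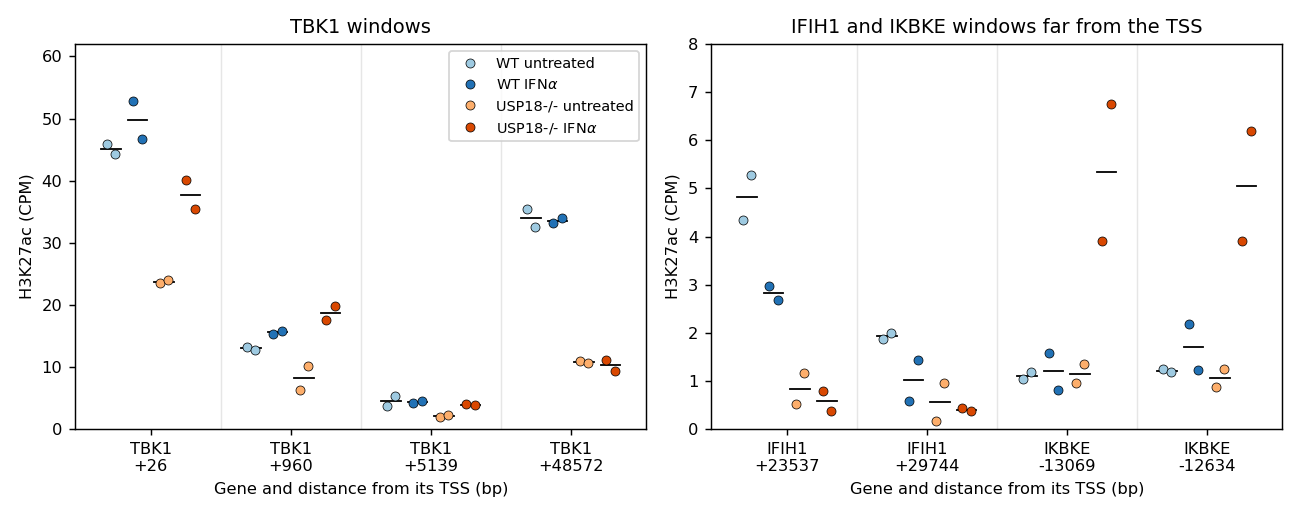
H3K27ac in CPM at the 4 TBK1 windows (left) and at IFIH1 and IKBKE windows far from the start (right). Points are the 2 libraries of each group and bars their mean. TBK1 +48572 and IFIH1 +23537 are lower in all USP18-/- libraries with or without IFNα, whereas IKBKE -13069 and -12634 are high in treated USP18-/- libraries only.

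IKBKE encodes IKKε, the inducible relative of TBK1. IKBKE +240 (chr1:206469983-206470983, annotated 5′ UTR in exon 1) held 22.8 and 19.5 CPM in untreated and 21.5 and 20.8 CPM in treated WT libraries, and 22.8 and 22.8 CPM in untreated and 39.2 and 36.2 CPM in treated USP18-/- libraries. The treated USP18-/- libraries stood above the other 6. IFNα gave 0.00 in WT cells (SE 0.13, edgeR adjusted p = 1.0) and 0.72 in USP18-/- cells (SE 0.12, edgeR adjusted p = 6.3e-07), with a difference of 0.72 (SE 0.18, edgeR adjusted p = 0.0019). IKBKE -2114, upstream of the start, held 11.5 to 11.9 CPM in WT libraries and 13.2 to 16.4 CPM in USP18-/- libraries, and its IFN effects were 0.00 (SE 0.17) and 0.17 (SE 0.15).

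A pair of overlapping windows upstream of IKBKE, which lie in intron 20 of the neighbouring gene SRGAP2, changed more than the start. IKBKE -13069 held 1.04 and 1.18 CPM in untreated WT, 1.59 and 0.823 CPM in treated WT, 0.963 and 1.35 CPM in untreated USP18-/- and 3.92 and 6.76 CPM in treated USP18-/- libraries. The rise with IFNα in USP18-/- cells was 2.20 (SE 0.34, edgeR adjusted p = 1.3e-07), and it exceeded the WT effect of 0.12 (SE 0.46) by 2.08 (SE 0.59, edgeR adjusted p = 0.0087). IKBKE -12634 rose by 2.24 (SE 0.34, edgeR adjusted p = 1.1e-07), with a difference of 1.74 from WT (SE 0.56, edgeR adjusted p = 0.026). Neither difference was called with DESeq2, nor without replicate 2 of treated USP18-/-, replicate 1 of untreated USP18-/- or replicate 2 of either WT group, and that of IKBKE -12634 was also lost without replicate 1 of untreated WT cells. The table assigns these windows to IKBKE by distance, which does not show that they act on it.

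Of the 14 IKBKE windows, 7 lie farther upstream in SRGAP2, from -113727 to -85690, where 78.1% to 91.3% of 32-base stretches occur more than once in hg38, so tags there may come from copies of the sequence. IKBKE -112107 was at 0 in both treated WT libraries and held 2.85 and 2.35 CPM in treated USP18-/- libraries, at least 8.69-fold higher against a floor of 3 counts per library. IKBKE -89881 was at 0 in all 4 WT libraries and held 1.55 and 1.97 CPM in replicate 2 of the untreated and treated USP18-/- groups, but 0.175 and 0 CPM in replicate 1, under the floor, so that its calls rested on replicate 2 and no bound is given. IKBKE -89077 averaged 4.70 CPM in treated WT and 13.4 CPM in treated USP18-/- libraries, a difference of 1.51 (SE 0.20, edgeR adjusted p = 8.1e-10). DESeq2 called neither IKBKE -112107 nor IKBKE -89881.

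EIF2AK2 encodes PKR, the kinase that stops translation on binding duplex RNA. EIF2AK2 +19 (chr2:37156528-37157528, annotated promoter) held 11.8 and 10.0 CPM in untreated and 31.2 and 31.7 CPM in treated WT libraries, and 8.05 and 8.90 CPM in untreated and 63.4 and 55.4 CPM in treated USP18-/- libraries. It was thus lowest in untreated USP18-/- and highest in treated USP18-/- cells, without overlap. IFNα raised it by 1.53 in WT cells (SE 0.14, edgeR adjusted p = 1.7e-14) and by 2.81 in USP18-/- cells (SE 0.13, edgeR adjusted p = 1.9e-31), a difference of 1.28 (SE 0.20, edgeR adjusted p = 5.2e-07). Between untreated genotypes the log2 difference was -0.36 (SE 0.16, edgeR adjusted p = 0.080), and with IFNα it was 0.92 (SE 0.11, edgeR adjusted p = 5.2e-11), under 2-fold.

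EIF2AK2 +483 overlaps this window, shares its ISRE core and gave 1.64 in WT cells (SE 0.15, edgeR adjusted p = 1.1e-14) and 2.84 in USP18-/- cells (SE 0.14, edgeR adjusted p = 1.2e-30). The effects differed by 1.19 (SE 0.21, edgeR adjusted p = 8.7e-06), a call lost without replicate 1 of untreated WT cells. EIF2AK2 -11500, in an intron of the neighbouring gene SULT6B1, was lower in untreated USP18-/- than in untreated WT cells, by a log2 difference of -1.42 (SE 0.55, edgeR adjusted p = 0.037). It rested on 3.5 and 8.5 tags in the untreated USP18-/- libraries, and the call was lost with DESeq2 and without either untreated WT library or replicate 1 of untreated USP18-/- cells.

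ADAR has an inner start, from which the long interferon-inducible form p150 is transcribed, and an outer start upstream of it that is known for the constitutive form p110. The IFN effect was called at the inner start and not at the outer one. At the inner start, ADAR +8 (chr1:154607740-154608740) held 42.2 and 39.9 CPM in untreated and 92.4 and 89.9 CPM in treated WT libraries, and 48.3 and 37.9 CPM in untreated and 190 and 182 CPM in treated USP18-/- libraries. The untreated genotypes overlapped, and both treated groups stood above them. The IFN effect was 1.15 in WT cells (SE 0.09, edgeR adjusted p = 2.9e-16) and 2.11 in USP18-/- cells (SE 0.09, edgeR adjusted p = 1.2e-33), and the effects differed by 0.95 (SE 0.13, edgeR adjusted p = 2.2e-08). With IFNα the difference between genotypes was 1.03 (SE 0.09, edgeR adjusted p = 1.1e-17), at the edge of the 2-fold limit, and it was 0.75 with scaling by the sum of counts and under 2-fold without replicate 1 of either USP18-/- group. Untreated cells differed by 0.08 (SE 0.10, edgeR adjusted p = 0.62), which became -0.07 with scaling by the sum of counts.

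ADAR -495 overlaps ADAR +8 on its upstream side and held 50.4 and 86.0 CPM in the treated USP18-/- libraries, a wide spread beside 25.1 to 28.0 CPM in treated WT libraries. Its IFN effects were 1.29 (SE 0.17, edgeR adjusted p = 2.6e-08) and 2.47 (SE 0.15, edgeR adjusted p = 3.4e-25). The difference of 1.18 between them (SE 0.23, edgeR adjusted p = 5.6e-05) was no longer called with DESeq2, without replicate 2 of treated or without replicate 1 of untreated USP18-/- cells. In ADAR +8 and -495, 21.1% and 15.8% of 32-base stretches were repeated in hg38.

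At the outer start, ADAR +28 (chr1:154627452-154628452) held 26.5 and 21.7 CPM in untreated and 25.5 and 23.4 CPM in treated WT libraries, and 27.8 and 31.7 CPM in untreated and 36.8 and 32.3 CPM in treated USP18-/- libraries. IFNα gave 0.03 in WT (SE 0.13, edgeR adjusted p = 0.98) and 0.22 in USP18-/- cells (SE 0.12, edgeR adjusted p = 0.20). ADAR +536, which overlaps it, gave 0.12 (SE 0.12) and 0.08 (SE 0.11). The USP18-/- libraries were above the WT libraries at the outer start, by 0.31 untreated (SE 0.12, edgeR adjusted p = 0.046) and 0.50 with IFNα (SE 0.12, edgeR adjusted p = 4.4e-04) at ADAR +28, beside medians of 0.31 and 0.35 over the start windows of all genes. No test compared the inner start with the outer one directly. Of the other 8 ADAR windows, ADAR +16262 in intron 7 was called, 1.10 higher with IFNα in USP18-/- cells (SE 0.36, edgeR adjusted p = 0.016), and replicate 2 of that group held 4.51 CPM beside 2.05 CPM in replicate 1. That call was lost with DESeq2, with scaling by the sum of counts and without replicate 2 of either USP18-/- group.

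**Figure D4:**
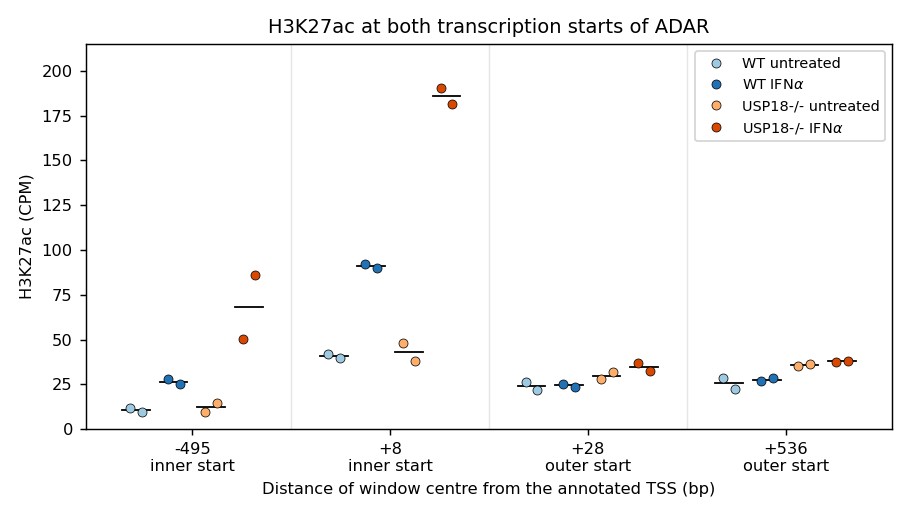
H3K27ac in CPM at both transcription starts of ADAR, with points for the 2 libraries of each group and bars for their mean. The inner start windows rise with IFNα in both genotypes, to 182 and 190 CPM at +8 in USP18-/- cells, while the outer start windows stay between 21.7 and 38.0 CPM in all libraries.

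Between untreated genotypes, 3 of 53 member windows were called higher in USP18-/- cells (5.66%, all windows 5.69%) and 5 lower (9.43%, all windows 10.8%), shares close to the background. The 3 higher windows were IFIH1 +736, IKBKE -89881 and IKBKE -34597, and the 5 lower ones were the windows of IFIH1, TBK1 and EIF2AK2 beyond 3000 bp given above. IKBKE -34597 rested on 3 and 4 tags in untreated WT libraries, and its call was lost with DESeq2 and without any 1 of the 4 untreated libraries. With IFNα, 13 of 53 were higher in USP18-/- cells (24.5%, all windows 11.3%) and 2 lower (3.77%, all windows 13.5%). Among the higher windows, IKBKE -112107, IKBKE -89881 and DDX58 +5437 reached the minimum of the filter through USP18-/- libraries alone. They were high there, so that the filter favoured these calls and that of IKBKE -89881 between untreated genotypes. The median member differences were 0.06 untreated and 0.38 with IFNα, and those of all windows -0.02 and 0.00. The IFN effect was larger in USP18-/- cells at 10 of 53 windows (18.9%, all windows 4.61%), in DDX58, IFIH1, DHX58, EIF2AK2, ADAR and IKBKE. The filter favoured the call of IKBKE -112107 here too. No member was called in the other direction, where 2.55% of all windows were; 0 passed there at an unadjusted p under 0.05 in edgeR's quasi-likelihood test, and DESeq2 called 0. Of the 53 windows, 29 were called in none of the 5 comparisons. Of these, 21 were among the 36 tested members beyond 3000 bp, with means of 0.791 to 7.87 CPM. The share of all windows called in none of the comparisons was not computed, so the count of 29 has no background beside it.

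Levels at the starts were ordered differently from the responses. By the mean of untreated WT libraries the order was TBK1 (45.0 CPM), ADAR (41.0 CPM), IKBKE (21.1 CPM), EIF2AK2 (10.9 CPM), DHX58 (10.8 CPM), MAVS (7.95 CPM), DDX58 (3.50 CPM) and IFIH1 (3.43 CPM), over windows of equal length. EIF2AK2 and DHX58, and DDX58 and IFIH1, overlapped between libraries, while the other neighbours in this order did not. In treated USP18-/- cells the order was ADAR (186 CPM), DHX58 (155 CPM), IFIH1 (62.5 CPM), EIF2AK2 (59.4 CPM), DDX58 (50.4 CPM), TBK1 (37.8 CPM), IKBKE (37.7 CPM) and MAVS (10.8 CPM). There IFIH1 and EIF2AK2, and TBK1 and IKBKE, overlapped between libraries.

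The start windows of all 16104 genes with a tested window were ranked by likeness to each member, as the root mean square difference of log2 CPM centred on its own mean over the 8 libraries. The nearest to DDX58 was IFIT2 (0.21), a translation inhibitor induced by interferon, and the nearest to IFIH1 was DDX58 itself (0.26). DHX58 was closest to OASL (0.19), EIF2AK2 to CMPK2 (0.16) and ADAR to PDCD1 (0.15). MAVS, TBK1 and IKBKE, which vary less, were closest to TMTC4 (0.088), LOC153684 (0.058) and ZC3HC1 (0.058). These are descriptions over 8 libraries that share the same groups.

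Around the members, 53 further genes of the pathway were listed, and 49 had a tested window within 3000 bp of the start. In WT cells IFNα raised 6 of 49, beside 0.373% of the start windows of all genes: DDX60, which promotes RIG-I signalling, the RNA sensors OAS1, OAS2 and OAS3 with their relative OASL, and IRF7, the factor phosphorylated by TBK1 and IKKε. OAS2 went from 11.1 to 51.7 CPM in WT cells and from 10.4 to 158 CPM in USP18-/- cells. In USP18-/- cells 9 of 49 rose (all genes 3.74%), with the MAVS partner TRADD (1.24), DHX15 (1.20) and OPTN (1.15) in addition, and RNF125, a ligase that marks RIG-I for degradation, fell by 1.15 on the log2 scale as the 1 gene lower (all genes 1.83%). The median log2 change with IFNα over the 49 genes was 0.11 in WT cells (all genes, -0.01) and 0.36 in USP18-/- cells (all genes, 0.04).

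Differences of the IFN effect were called for 6 of 49 (all genes 2.52%), which were OAS1 (1.72), OAS2 (1.71), OAS3 (1.23), OASL (1.47), TRADD (1.59) and DHX15 (1.03). DDX60 rose by 2.11 in WT and 2.29 in USP18-/- cells, with a difference of 0.17 (SE 0.22, edgeR adjusted p = 0.74). Untreated USP18-/- cells were higher at 6 of 49 (all genes 6.58%): MEX3C (1.18), OAS3 (1.39), the MAVS partners TRAF2 (1.17) and TRAF3 (1.23), OPTN (2.53) and the deubiquitinase CYLD (1.69). With IFNα, 20 of 49 were higher (all genes 13.2%). Of the partners of PKR and ADAR on the list, PRKRA, TARBP2, DICER1, EIF2S1 and ADARB1 each stayed within 2-fold, with log2 differences from -0.56 to 0.96 over the 5 comparisons.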

How the data were processed

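H3K27ac ChIP-seq of THP-1 cells was analysed in 8 libraries, 2 in each of 4 groups taken from the labels. Reads were aligned by the authors to hg38 with Bowtie2 and counted with HOMER, as raw tags in a 1000 bp window around each merged ATAC-seq peak. The deposited expected counts are therefore not normalized, and they hold fractions because each mate of a pair is part of a tag. Whole numbers made up 52.2% of them, and the rest were rounded for the tests. Windows reaching 10 counts in 2 or more of the 8 libraries were scaled by TMM and fitted by edgeR 4.0.16 in R 4.3.3 with a mean for each group. Its quasi-likelihood test, with Benjamini-Hochberg adjustment across the windows kept, was used for the IFN effect in each genotype, the genotype difference in each treatment, and the difference of the IFN effects. A call required a change of more than 2-fold with an adjusted p below 0.05, as in the methods of the study. Groups of 2 rest on a spread shared over all windows (biological coefficient of variation, 0.0747). Overlapping windows share tags, TMM assumes that most windows do not differ, and the smallest library held 9046083 rounded counts.

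Members, pathway genes, markers and motifs were chosen with earlier results of these data known. Named windows were, per gene, the tested window nearest the TSS, the one with the highest mean among the others, and the called ones with the largest IFN effect in USP18-/- cells and the largest untreated genotype difference. Motifs were matched exactly in hg38 on both strands, and the steps were tested on simulated data. Alternatives covered DESeq2 1.42.0, scaling, filters, rounding, thresholds, the distance limit, a replicate block, fits to the compared libraries alone, and fits without each library in turn. Correlations between same-numbered libraries of different groups ran from -0.0038 to 0.074, so the numbers did not pair the libraries. The 8 input libraries and the ATAC-seq data were not used here, and some listed genes and motif results are not reported here.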

Additional observations from a re-analysis of the deposited data

Results flagged for a closer look

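The IFN effect differed between the genotypes, by the test of the difference itself (edgeR quasi-likelihood, Benjamini-Hochberg adjusted), at 14 of the 53 tested member windows. Of all 123276 windows tested, 8296 passed the same adjusted p with a positive difference (USP18-/- minus WT) and 6439 with a negative one. In log2 units and with the larger effect in USP18-/- cells each time, the differences at the sensors were 2.12 for DDX58 +11, 2.36 for DDX58 +656, 1.43 for IFIH1 +736 and 1.40 for DHX58 -12. They were 1.28 for EIF2AK2 +19, 1.19 for EIF2AK2 +483, 0.95 for ADAR +8 and 1.18 for ADAR -495. At the kinases they were 0.52 for TBK1 +26, 0.93 for TBK1 +960, 0.72 for IKBKE +240, 2.08 for IKBKE -13069 and 1.74 for IKBKE -12634. The fitted 7.86 of IKBKE -112107 compares groups at or near 0 and is no bound. Differences under 1 passed the adjusted p but not the 2-fold limit.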

How the results depend on the processing

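Of the member windows called, 6 of 8 (IFN in WT), 10 of 15 (IFN in USP18-/-), 3 of 8 (genotypes, untreated), 9 of 15 (genotypes with IFNα) and 5 of 10 (difference of IFN effects) were called under all alternatives in which they were tested, and 0 changed sign. Groups of 2 libraries and windows of few tags limit the precision. DESeq2 called 1 higher and 3 lower windows between untreated genotypes and 6 differences of the IFN effect. Of all 123276 windows it called 5500 higher and 9460 lower between untreated genotypes. It called a larger IFN effect in USP18-/- cells at 3844 of them. A filter of at least 30 counts, which tests fewer windows, left 1 higher and 3 lower between untreated genotypes and 8 higher with IFNα. Of all 64305 windows tested under that filter, 4673, 10346 and 10653 were called, in the same order. With no fold threshold, 2 windows fell with IFNα in USP18-/- cells, 10 were higher between untreated genotypes, and 21 were higher and 5 lower with IFNα. The counts over all 123276 windows tested were, in the same order, 13825, 20804, 26245 and 23897. Within 10000 bp of the start, 1 window was higher and 1 lower between untreated genotypes, and 8 were higher and 0 lower with IFNα. The share over all windows within that distance was not computed. Scaling by the sum of counts gave 5 lower with IFNα, beside 24119 of all 123276 windows. It moved the median of all windows to -0.14 (IFN in USP18-/-), -0.16 and -0.27 (genotypes, untreated and with IFNα) and -0.13 (difference). Tag directory totals moved the median of the genotypes with IFNα to -0.11. The cause of these changes was not tested beyond the settings themselves. In the central 200 bp of the windows, 8.62% of members held an ISRE core, beside 5.43% of all windows.

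Leaving out 1 library at a time gave 6 to 8 higher and 0 lower (IFN in WT), 12 to 15 higher and 0 to 1 lower (IFN in USP18-/-), 1 to 3 higher and 2 to 7 lower (genotypes, untreated), 8 to 14 higher and 2 to 4 lower (genotypes with IFNα), and 6 to 10 larger and 0 smaller IFN effects. Counts moved by over 1.5 times without replicate 2 of untreated USP18-/- (1 higher, untreated), without its replicate 1 (3 lower, untreated; 1 lower with IFNα in USP18-/-), without replicate 2 of untreated WT (2 lower, untreated), without replicate 1 of treated WT (4 lower with IFNα) and without replicate 2 of treated USP18-/- (8 higher with IFNα; 6 differences). At the start windows, the sign changes found were those of MAVS, ADAR and IKBKE. MAVS ranged from -0.27 to 0.093 (IFN in WT), -0.41 to 0.12 (IFN in USP18-/-) and -0.35 to 0.18 (difference, 0.0002 with the 30-count filter). ADAR ranged from -0.11 to 0.24 between untreated genotypes (-0.070 with the sum of counts). IKBKE ranged from -0.11 to 0.12 with IFNα in WT (-0.004 with the 30-count filter, -0.012 with no filter) and from -0.0053 to 0.23 between untreated genotypes (-0.034 with the sum of counts).

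With the replicate number as a block, the counts of called members were 8 (IFN in WT), 15 (IFN in USP18-/-), 3 higher and 5 lower (untreated genotypes), 13 higher and 2 lower (genotypes with IFNα) and 10 (difference), the same numbers as without the block.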
